A study of Mus musculus with 3 samples.

Results

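A set of 9 genes of retinoic acid synthesis, uptake, binding, breakdown and response were followed in sorted cells of the mouse leptomeninges, the thin inner membranes on the brain surface. They are Rdh10, Aldh1a1, Aldh1a2, Aldh1a3, Stra6, Crabp1, Crabp2, Cyp26b1 and Rarb. They were chosen by symbol for their place in the pathway, and all 9 were found among the 46983 gene rows of the count table. The series holds 3 libraries of 1 group, a fraction enriched for pia from mice given vehicle. Each was bulk RNA from dissociated, flow-sorted cells, amplified as cDNA with a template-switching low-input kit. The agent that the vehicle stands for, and the strain, genotype, sex and age of the mice, are not given in the sources used here. Nothing says that the 3 libraries came from separate animals, so spreads between them may be technical.

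Retinoic acid is made from vitamin A (retinol) in successive oxidations. Retinol enters cells in part through the receptor Stra6, retinol dehydrogenases such as Rdh10 turn it into retinaldehyde, and the Aldh1a enzymes oxidise retinaldehyde to retinoic acid. Crabp proteins bind retinoic acid inside the cell, Cyp26 enzymes degrade it, and the receptors Rara, Rarb and Rarg, paired with Rxr receptors, carry its signal to genes. In the meninges, Aldh1a2 and the retinoic acid it makes are known from developing meningeal fibroblasts, where they act on the underlying cortex.

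Rarb is both a receptor and a textbook target of the pathway, through a direct repeat of the receptor binding unit with a spacer of 5 bases, called DR5. The RefSeq promoter table (GRCm38.p6; 250 bases before to 50 after each start) held windows for 6 of the 9 genes and for 38 of 49 other genes of the pathway. Both strands were searched for DR5, DR2 and DR1 repeats, with spacers of 5, 2 and 1 bases. The unit could be the consensus AGGTCA, its variant GGGTCA with another leading base, the variant AGTTCA seen in known sites, or the form that combines both changes, GGTTCA, in any pairing. A DR5 match was found in 32 of 32851 windows (0.0974%), and among the pathway genes in the windows of Rarb and Cyp26a1. Both matches are built only of the units AGTTCA and GGTTCA. Since AGTTCA was admitted from known sites and Rarb is a known target, its match was not found blind. Both sites are shown because they are the DR5 matches among these genes, and no receptor binding was measured; capitals mark the 17-base repeat, read on the strand that carries it.
Rarb, chr14:16575506-16575535, minus strand: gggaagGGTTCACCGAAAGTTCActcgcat
Cyp26a1, chr19:37697769-37697798, minus strand: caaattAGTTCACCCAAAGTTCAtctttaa
The Rarb repeat spans bases -53 to -37 from the start site on the strand of the gene, and that of Cyp26a1 bases -32 to -16 on the opposite strand. The repeats share 15 of 17 bases. No DR5, DR2 or DR1 match was found in the windows of Aldh1a1, Aldh1a2, Stra6, Crabp1 or Cyp26b1; this says only that these letters are not in those windows. Among the other pathway genes, the window of Bco1 held a DR1 match, with its first base at -56, on the opposite strand. DR2 and DR1 matches were in 0.268% and 0.222% of all windows.

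The libraries numbered 1, 2 and 3 held 21002860, 28704952 and 25338616 counts in genes. Levels are given as CPM, counts divided by the scaled library size and expressed per 1000000. At these depths 0 counts allow up to 3, at most 0.152 CPM. Library 1 stood apart from the others in a way that followed the GC content of genes, described with the results it touches. Summed over 6 markers, fibroblast transcripts lay between 23467 and 29100 CPM, and all 6 passed the filter on low counts. The 5 pial markers summed to 247, 190 and 360 CPM and were uneven. S100a6 was at 159, 66.2 and 248 CPM, and Lama2 lay between 80.4 and 116 CPM. Ngfr and Col15a1 reached at most 2.63 and 6.36 CPM, and Lama1 had 0, 18 and 6 counts. The 8 arachnoid markers summed to 1056.5, 1420.1 and 1179.6 CPM, above the pial sum in every library. Most of that came from Slc47a1, at 844, 1239 and 1054 CPM, and Wnt6 reached at most 1.47 CPM. The 6 markers listed for dural fibroblasts, the outer membrane, summed to 10611, 6712 and 5382 CPM, above the pial sum in every library. Most of it came from Fxyd5 and Alpl, which other cells express too. Of the other dural markers, Foxp1 was at 159, 232 and 159 CPM and Foxp2 at 125, 273 and 148 CPM. Dkk2 and Nppc reached at most 38.9 and 55.6 CPM. Macrophage markers summed to 14.2, 216 and 595 CPM and choroid plexus markers to 80.6, 1670 and 2421 CPM, in both cases lowest in library 1. Mural cell markers summed to 2164, 1846 and 3655 CPM and Schwann cell markers to 1820, 1458 and 2774 CPM, in both cases lowest in library 2 and highest in library 3. The part of these markers in the results was not tested.

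Per kilobase of exon, the 9 genes spanned a wide range of levels. Crabp2 was highest, at a mean of 123 ± 40.5 CPM per kilobase (SD, n = 3), and Aldh1a2 came next at 28.8 ± 0.804. Crabp1 (20.2 ± 4.28), Rarb (11.7 ± 4.02), Aldh1a1 (10.9 ± 3.28) and Stra6 (8.05 ± 1.68) formed a middle set. Rdh10 (0.807 ± 0.351), Aldh1a3 (0.666 ± 0.281) and Cyp26b1 (0.512 ± 0.200) were low. Of the 14409 genes past the filter, 14375 had an annotated length. Among these, Crabp2 lay at percentile 97.1 of the mean level, Aldh1a2 at 88.1, Crabp1 at 83.8 and Rarb at 75.3. Aldh1a1 lay at 73.8 and Stra6 at 67.8, but Rdh10, Aldh1a3 and Cyp26b1 at 17.5, 14.2 and 10.4. Of 8 pairs of neighbours in this order, 5 kept it in every library and 3 had ranges that did not overlap: Crabp2 above Aldh1a2, Aldh1a2 above Crabp1, and Stra6 above Rdh10. Rarb and Aldh1a1, Aldh1a1 and Stra6, and Aldh1a3 and Cyp26b1 changed places between libraries.

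**Figure D1:**
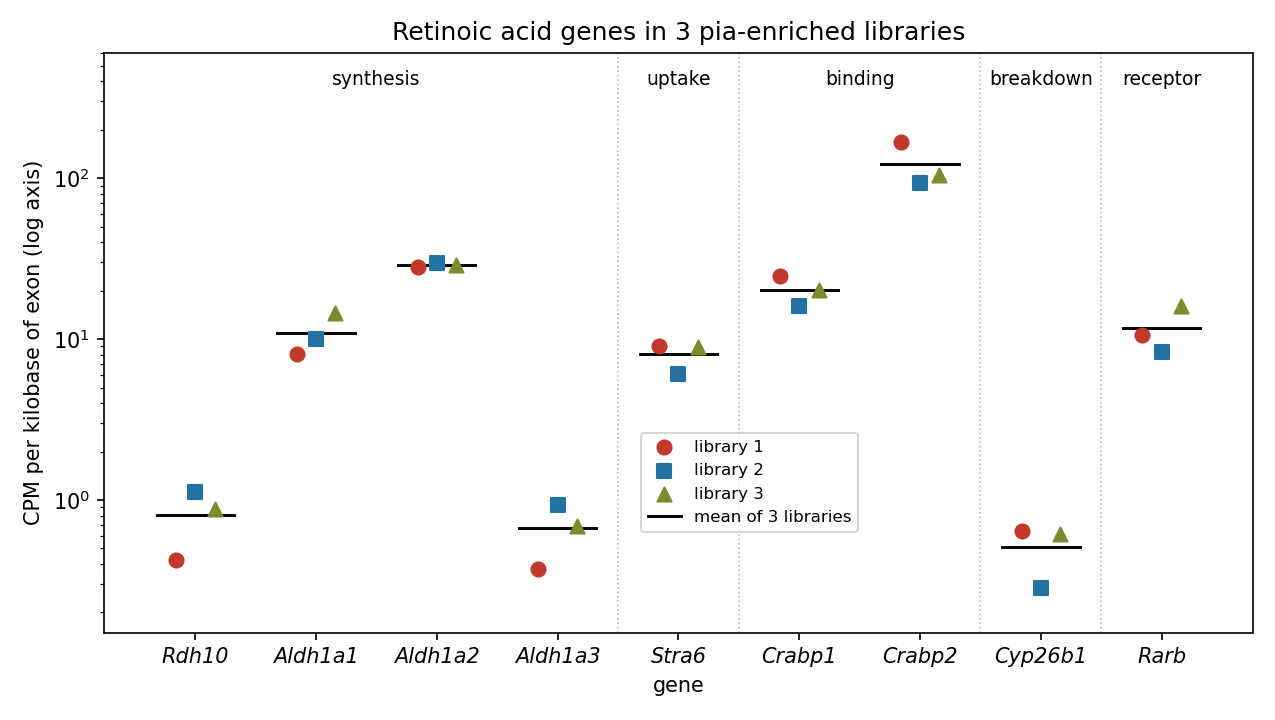
Level of each gene in CPM per kilobase of exon (log axis), with 1 point per library and a black bar at the mean of 3 libraries. The other 6 genes lie above 6 CPM per kilobase in every library, and Rdh10, Aldh1a3 and Cyp26b1 lie at or under 1.11.

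The length used for a gene matters to this order, because several genes have many annotated transcripts and the table does not say which were present. Aldh1a2 and Crabp1 have 1 annotated transcript each, whereas Aldh1a1 has 6, Rarb 7 and Stra6 14. With the longest single transcript as the length, Aldh1a1 rose to 22.8 ± 6.86 CPM per kilobase, Rarb to 19.8 ± 6.81 and Stra6 to 15.2 ± 3.18. The value of Rarb is uncertain because much of that transcript overlaps another gene, as described below. Crabp2 (174 ± 57.5) stayed first by mean and in every library, and Stra6 stayed above Rdh10 in every library. The order of Aldh1a2, Aldh1a1, Crabp1 and Rarb was then not resolved, since each neighbouring pair changed places in 1 library.

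The genes of synthesis were examined first. Aldh1a2 (ENSMUSG00000013584.5, chromosome 9, 71215789 to 71296243 of GRCm38, plus strand) encodes the retinaldehyde dehydrogenase known from meninges and mesoderm. It had 1257, 1998 and 1689 counts, or 63.5, 67.1 and 65.1 CPM in libraries 1, 2 and 3. Its highest library exceeded its lowest by 1.06 times, a spread wider than that of 1.38% of genes tested. With trends by GC content and length removed, its values were 58.5, 71.7 and 66.1 CPM, so part of this evenness depended on the scale used.

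Aldh1a1 (chromosome 19, 20492715 to 20643465, plus strand) encodes the related enzyme known from adult tissues such as liver and retina. It had 791, 1474 and 1855 counts, or 40.0, 49.5 and 71.5 CPM. Library 3 was highest and library 1 lowest. Of the 50-base words in its longest transcript, 6.54% also occur in Aldh1a7, a closely related neighbour, and reads from them could be lost as not unique. Aldh1a7 itself had 14, 11 and 17 counts.

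Aldh1a3 (chromosome 7, 66390890 to 66427517, minus strand) encodes the family member known from nasal and ventral eye tissue. It had 34, 128 and 83 counts, or 1.72, 4.30 and 3.20 CPM, lowest in library 1. Of the summed level of the 3 enzymes per kilobase of exon, Aldh1a2 held 71.8% ± 5.78 (SD, n = 3), Aldh1a1 26.6% ± 5.65 and Aldh1a3 1.63% ± 0.639. With the longest transcript as length the shares were 55.6% ± 7.0, 42.8% ± 6.93 and 1.68% ± 0.665. Aldh1a3 was thus a small share under both lengths, whereas the lead of Aldh1a2 over Aldh1a1 narrowed.

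Rdh10 (chromosome 1, 16105774 to 16133734, plus strand) encodes a retinol dehydrogenase that is required for retinoic acid in the mouse embryo. It had 35, 138 and 95 counts, or 1.77, 4.64 and 3.66 CPM. Library 1 was lowest, as for Aldh1a1, Aldh1a2 and Aldh1a3, so all 4 genes of synthesis had their lowest value there; 40.4% of the 14409 genes tested did. With trends by GC content and length removed, this held for 3 of the 4, since Aldh1a1 was then at 47.5 CPM in library 1 and lowest in library 2, at 44.2 CPM.

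Stra6 (chromosome 9, 58063788 to 58153996, plus strand), the membrane receptor for retinol-binding protein, had 1047, 1060 and 1355 counts. These are 52.9, 35.6 and 52.2 CPM, lowest in library 2 and close together in libraries 1 and 3. Crabp2 (chromosome 3, 87948666 to 87953376, plus strand), which carries retinoic acid to its receptors, had 4424, 3696 and 3614 counts, or 224, 124 and 139 CPM. Library 1 was high, and libraries 2 and 3 lay near each other. Crabp1 (chromosome 9, 54764748 to 54773110, plus strand), a binding protein of the cytoplasm, had 390, 382 and 418 counts, or 19.7, 12.8 and 16.1 CPM. Its transcript is short, at 802 bases, which brings its level per kilobase near that of Aldh1a2.

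Cyp26b1 (chromosome 6, 84571414 to 84593908, minus strand), a cytochrome P450 that degrades retinoic acid, was the lowest of the set. It had 68, 45 and 85 counts, or 3.44, 1.51 and 3.28 CPM, lowest in library 2. The other enzymes of this family lay lower still. Cyp26a1, the other gene with a DR5 match shown above, had 6, 8 and 3 counts and did not pass the filter. Cyp26c1 had 0 counts in all libraries, which allows up to 0.152, 0.101 and 0.116 CPM.

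Rarb (ENSMUSG00000017491.8, chromosome 14, 16430839 to 16819156, minus strand) had 1109, 1306 and 2207 counts, or 56.0, 43.9 and 85.1 CPM. Library 3 was highest and library 2 lowest, the same order as for the summed pial, mural and Schwann cell markers. Astrocyte markers, which summed to 60.7, 46.0 and 88.8 CPM, had this order too. The part of these markers in it was not tested, and the share of all genes with this order was not counted. The value of Rarb is uncertain for a reason of annotation. Of the 50-base words in its longest transcript, 54.1% also occur in Top2b. Over all its exons, 2020 of 5265 bases (38.4%) overlap exons of Top2b and Gm48162 on the other strand. The kit does not mark strand, and the strand setting of the counting is not given in the sources used here, so reads there could be dropped as ambiguous or given to either gene. With all Rarb counts divided by the 3245 bases shared with no other gene, a length chosen after the overlap had been seen, Rarb lay at 17.3, 13.5 and 26.2 CPM per kilobase, against 10.6, 8.34 and 16.2 over all exons. The former is the level over the unshared bases only if every shared read was dropped, and is otherwise too high. Top2b, a DNA topoisomerase found in most cells, was at 6.16, 36.9 and 37.6 CPM. It was thus lowest in library 1, unlike Rarb, and below Rarb in each library.

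Differences between genes were then taken within each library, on the log2 scale of CPM per kilobase plus 0.1. Aldh1a2 exceeded Aldh1a3 by 5.90, 4.85 and 5.19, a mean of 5.31 ± 0.54 (SD, n = 3), and Rdh10 by 5.08 ± 0.59. It exceeded Cyp26b1 by 5.25, 6.28 and 5.34, a mean of 5.62 ± 0.57, or 49.3-fold. This size depended on the scale, with a mean of 4.31 for a pseudocount of 1 and 4.61 with no length scaling. As RNA, Aldh1a2 was above Cyp26b1 in all 3 libraries. Crabp2 exceeded Crabp1 by 2.78, 2.55 and 2.38, a mean of 2.57 ± 0.20, or 5.94-fold. Aldh1a2 exceeded Aldh1a1 by 1.78, 1.55 and 0.98, a mean of 1.44 ± 0.41. Each of these 5 differences had the same sign in 3 of 3 libraries. A two-sided exact permutation test over sign flips of the 3 libraries gave p = 0.25 in each case, also after Benjamini-Hochberg adjustment over 5 pairs, and no smaller value is possible with 3 libraries. With the longest transcript as length, the mean for Aldh1a2 over Aldh1a1 was 0.38 ± 0.41, with Aldh1a2 higher in 2 of 3 libraries (exact permutation p = 0.5); in library 3 the difference was -0.08.

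**Figure D2:**
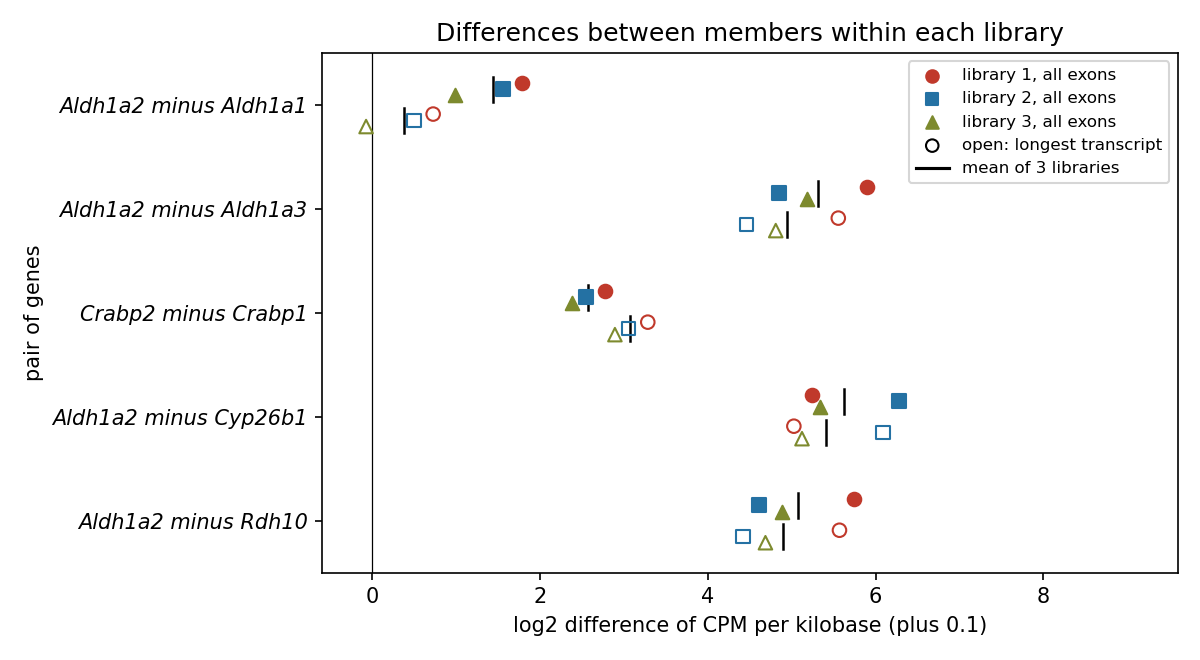
Log2 difference of CPM per kilobase (plus 0.1) between members of 5 pairs in each library; filled symbols use the length of all exons, open symbols the longest transcript, and black bars are means of 3 libraries. The differences of Aldh1a2 from Aldh1a3, Cyp26b1 and Rdh10 lie above 4 in every library, and the difference from Aldh1a1 lies nearest to 0.

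None of the 9 genes was called variable between libraries by edgeR's goodness-of-fit test at an adjusted p threshold of 0.05 over all genes tested; 63 of 14409 genes (0.437%) were. At an unadjusted p below 0.05 the count was also 0 of 9, against 1015 genes (7.04%). The lowest unadjusted p of the set was 0.323, for Rarb. The highest library exceeded the lowest by a median of 1.80 times over the 9 genes and of 1.72 times over all genes tested. The widest ratios were 2.62 for Rdh10, 2.50 for Aldh1a3 and 2.27 for Cyp26b1, the 3 genes with the fewest counts. With any 1 library left out, 0 of the 9 were called.

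Library 1 was lowest for 4 of the 9 genes, those of synthesis, and highest for another 4: Stra6, Crabp1, Crabp2 and Cyp26b1. Among all genes tested it was lowest in 40.4% and highest in 39.6%. On the log2 scale, library 1 over the average of libraries 2 and 3 was -1.23 for Rdh10, -1.13 for Aldh1a3, -0.60 for Aldh1a1 and -0.06 for Aldh1a2. It was -0.20 for Rarb, 0.27 for Stra6, 0.44 for Crabp1, 0.52 for Cyp26b1 and 0.76 for Crabp2. The 4 genes of synthesis had a GC content of 46.1% to 50.6%, and the 4 genes highest in library 1 of 50.6% to 57.4%. Over all genes tested, split into 10 equal groups by GC content, the lowest group (median 39.9%) had a median ratio of -1.27 and the highest (59.4%) of 0.41. Across the 9 genes, which share their libraries, the ratio and GC content had a Pearson coefficient of 0.688 and a Spearman coefficient of 0.770, and across 14375 genes tested 0.574 and 0.596.

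With trends by GC content and length removed, the ratios were nearer 0 for Rdh10 (-0.94), Aldh1a1 (-0.23), Stra6 (-0.02), Cyp26b1 (0.22) and Crabp2 (0.45). The ratio of Aldh1a3 stayed at -1.13 and that of Rarb came to -0.01. Crabp1 turned from 0.44 to -0.29, and Aldh1a2 moved from -0.06 to -0.24. Removal of the trends thus changed the size of these ratios for every member except Aldh1a3, and the sign for Crabp1 and Stra6. With trends removed, library 1 was highest for 1 of the 9 genes, Crabp2, against 40.8% of all genes tested. It was lowest for 4, Rdh10, Aldh1a2, Aldh1a3 and Crabp1, against 35.3%. Stra6 and Cyp26b1 were then highest in library 3 and Crabp1 in library 2. On this scale too, 0 of the 9 genes were called variable.

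**Figure D3:**
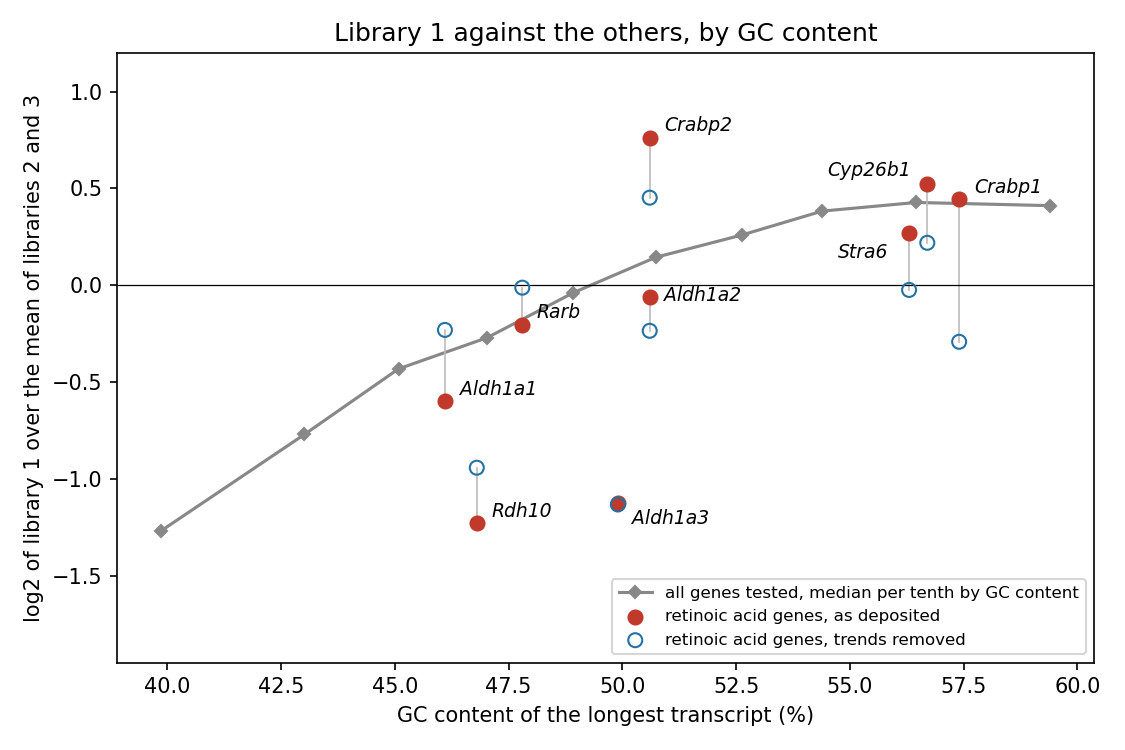
Library 1 over the average of libraries 2 and 3, as a log2 ratio, against the GC content of the longest transcript (%); red points are the 9 genes as deposited, open blue points the same with trends removed, and grey diamonds medians of 10 equal groups of all genes tested, ordered by GC content. The grey line climbs from -1.27 to 0.41, and Aldh1a3 and Crabp2 lie farthest below and above it.

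A list of 49 other genes of the pathway was set beside the 9. Of these, 44 had a count in some library, 33 passed the filter and 1, Ttr, was called variable, beside 0.437% of all genes tested, the share against which the counts in the lists below are also read. Among the carriers, Rbp4, the retinol carrier of blood, was at 4.89, 5.78 and 3.73 CPM per kilobase, and Fabp5, a fatty acid binding protein that also binds retinoic acid, was at 3.10, 2.53 and 4.27. Ttr, the partner of Rbp4 in blood and a main product of choroid plexus, was at 27.5, 1344 and 2133 CPM per kilobase (edgeR adjusted p = 6.461e-10). Ttr was low in library 1, as the summed choroid plexus markers were, and without library 1 it was not called.

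The list of retinol and retinaldehyde dehydrogenases showed other genes well above Rdh10. Of its 16 genes, 10 passed the filter and none was called variable. Dhrs3, which returns retinaldehyde to retinol, led at 170, 88.9 and 95.0 CPM per kilobase, against 0.425, 1.11 and 0.881 for Rdh10. Adh5 followed at a mean of 31.1 ± 4.66 and Dhrs4 at 28.2 ± 5.65, both enzymes with many other substrates. Dhrs3 and Crabp2 had similar levels, highest in library 1 for both, as for 39.6% of all genes tested.

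Of the genes of storage and carotenoid cleavage, 2 of 4 passed the filter, at low levels: Bco2, at 1.15 ± 0.533 CPM per kilobase, and Lrat, which stores retinol as esters, at 0.451 ± 0.121. Bco1 lay below the filter at 0.262 ± 0.0959.

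Receptors and cofactors were all detected: 11 of 11 genes passed the filter and none was called variable. Rarg led at 46.7, 21.6 and 22.8 CPM per kilobase, followed by Rxra at 20.4 ± 5.36 and Rxrg at 19.4 ± 5.82. Rara lay at 23.4, 11.4 and 13.0, and Rarb at 10.6, 8.34 and 16.2 over all exons. Rarg was above Rarb in all 3 libraries on that scale. With all Rarb counts divided by its unshared length alone, an upper value, Rarb was at 26.2 in library 3, above the 22.8 of Rarg there. The order of Rarb among the 3 receptors was therefore not resolved.

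Among genes known as retinoic acid targets in other tissues, 7 of 11 passed the filter and 0 were called variable. Rarres2, which encodes the chemokine-like protein chemerin, was at 125, 45.5 and 47.1 CPM per kilobase. Tgm2, a transglutaminase, was at 31.0 ± 8.80, and Rarres1 at 6.60 ± 4.52. Hoxb1 and Stra8, induced by retinoic acid in hindbrain and germ cells, had 0 counts in every library. The list thus held both abundant and undetected genes, and Rarb lay between them.

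**Figure D4:**
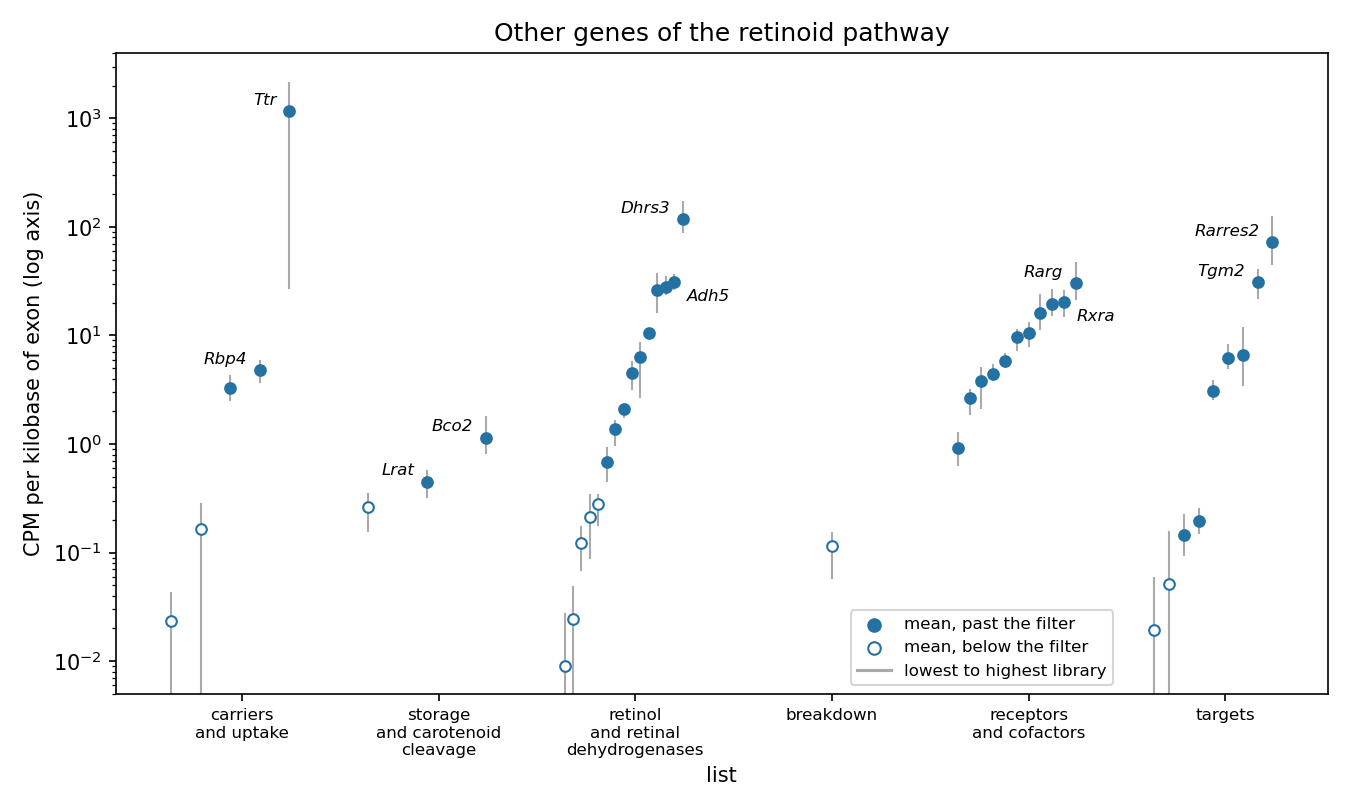
Mean level of 44 other pathway genes with a count, in CPM per kilobase of exon (log axis), by list; grey lines run from the lowest to the highest library and leave the plot where a library is at 0 counts. Ttr has the longest line among filled points, from 27.5 to 2133, and open points are genes below the filter.

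Rdh10 had the widest range of the 9 genes on the scale of log2(CPM + 1), at 1.03. The genes whose centred values over the 3 libraries lay nearest to it were Napb, Grsf1 and Rcbtb1, at distances of 0.00738, 0.0150 and 0.0155. Napb was at 12.8, 26.9 and 22.3 CPM. With 3 libraries such likeness is common: 910 of 14400 genes lay within 0.25 of Rdh10.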

How the data were processed

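RNA of 3 libraries was measured by paired-end sequencing. The authors deposited raw counts per gene, with no normalization, per the file headers and values; mm10, HTSeq 0.5.3 and DESeq2 1.22.1 are named in the submitters' processing notes. The aligner, annotation release and strand setting are not given in the sources used here. The 5 counter rows for reads given to no gene held 45.6%, 39.1% and 39.6% of the totals and were left out. Positions, exon lengths and GC content came from GENCODE M21 (GRCm38, the assembly of mm10), matched by gene identifier; promoters came from RefSeq.

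Low genes were removed with edgeR's filterByExpr (version 4.0.16, R 4.3.3) at a minimum of 10 counts, which left 14409 genes, and TMM factors from those genes scaled the library sizes. Since 1 group gives no contrast, variation between libraries was tested by goodness of fit in edgeR (chi-square, 2 degrees of freedom) with the trended dispersion. Its p-values were adjusted over all genes by Benjamini-Hochberg, and the step was tested on simulated data. Levels between genes were compared per kilobase of all annotated exons. Trends by GC content and length were removed with splines fitted per library. Alternatives were size factors of DESeq2 1.42.0, plain totals, other filters, dispersions and lengths, and leaving out each library. Amplified reads carry no molecular identifiers, so limits from counts cover counting error only. The members, lists and tests were chosen with earlier results of these data known. The naming rule took all 9 members, the 3 highest genes of each other list, and every gene called variable; 1 pathway gene is not reported here. Other genes named, such as Rara, Rdh5, Rdh11, Hoxb1 and Top2b, were chosen after their values were seen.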

Additional observations from a re-analysis of the deposited data

How the results depend on the processing

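No paired analysis was possible because there was only 1 group of libraries. All 45 alternatives for the 5 differences between genes kept their direction, but most of them could hardly do otherwise. Size factors all but cancel within a library, and neither a pseudocount nor leaving out 1 library could turn a sign shared by all 3. Trends were fitted on values centred per gene, so their removal hardly moved the means. The alternatives of length could turn a direction, and they turned no mean. The 3 libraries are too few for the permutation test to reach 0.05, so its p does not bear on stability. Aldh1a2 over Aldh1a1 (1.44) was 0.38 with the longest transcript as length and 0.32 with no length scaling. With a pseudocount of 1 and with no length scaling, Aldh1a2 over Cyp26b1 (5.62) was 4.31 and 4.61, over Aldh1a3 (5.31) 4.18 and 4.46, and over Rdh10 (5.08) 4.06 and 4.34. Crabp2 over Crabp1 (2.57) was 3.29 with no length scaling. Of the 9 genes, 0 were called variable under each of the 9 alternatives. That result could hardly differ, since the test called only 0.437% of all genes in the main setting. The wider list lost its 1 call, Ttr, without library 1 (0 genes), and held from 0 to 1 calls when each replicate was left out in turn. The count over all genes (63) was 134 with no filter on low counts, 181 with a mean count of at least 10, both of which admit more genes, and 109 with GC content and length trends removed, where the cause was not tested; with each replicate left out in turn, and so fewer samples, it ranged from 12 to 28. Of 54 alternatives for the levels of the 9 genes in CPM, 52 lay within 1 SD. The other 2 were of Aldh1a2, whose SD was small, at 68.1 without library 1 and 63.2 without library 2. This count says little, because leaving out 1 of 3 values cannot move a mean by 1 SD except through the scaling. Removal of the trends, fitted on values centred per gene, also moves a mean little. Rarb per kilobase, 11.7 over all exons, was 19.0 with all its counts divided by the unshared exon bases alone, a length chosen once the overlap had been seen and an upper value unless every shared read was dropped. Depth was a limit for the genes of fewest counts: Aldh1a3, Rdh10 and Cyp26b1 had as few as 34, 35 and 45 counts in a library.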
